A study of Caenorhabditis elegans with 3 samples.

Results

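The ceh genes are the C. elegans homeobox genes whose names are ceh- and a number. All protein-coding genes of the Ensembl WBcel235 annotation with such a name were taken, apart from ceh-13 and ceh-16, which gave 61 of 19973 nuclear protein-coding genes. Of the 61 genes, 18 (29.5%) lie on chromosome X, where 13.7% of all protein-coding genes lie, and 43 lie on the autosomes. A peak was counted for a gene when its summit, the base with the most signal, fell in the gene body or within 2000 bp of an annotated transcript start of that gene. That stretch is called the gene region below. The rule for the ceh genes used gene names and not measured values, though it was chosen with earlier results of these data known.

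Homeobox genes encode transcription factors that hold a homeodomain, a helical DNA-binding fold that contacts short AT-rich sequences. In C. elegans they set axial pattern and muscle, pharynx and gland fates, and most classes of neurons are known by the combination of homeobox genes they express. EGL-27, the protein that was precipitated, resembles vertebrate MTA proteins, which are subunits of nucleosome remodelling and deacetylase complexes, and egl-27 mutants are known for defects in cell polarity and in the expression pattern of Hox genes, which are homeobox genes too.

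The peaks come from ChIP-seq, the sequencing of DNA precipitated with a chromatin protein, on whole, mixed-sex L4 larvae, the last larval stage, of strain OP177. These animals carried the unc-119(ed3) mutation on chromosome III and the insertion wgIs177, a transgene for EGL-27 with GFP and FLAG at its C-terminus, so the tagged protein came from the transgene and the peaks are averages over all cells of the animal. The data form 1 group of 3 libraries, labelled biological replicates 1, 2 and 4, with no other condition, and every comparison below sets the ceh genes beside all protein-coding genes. The single-library lists hold 9666 peaks for replicate 1, 13686 for replicate 2 and 6636 for replicate 4, the pooled list holds 30000 and the reproducible list 102. By its deposited name the pooled list holds background beside peaks, and the number of background entries is not known, so a peak of that list is not by itself an EGL-27 site. The signal of a peak is the authors' value on a scale that was not stated, it ranks peaks within 1 list only, and sequencing depth is unknown. A percentile below is the percentage of peaks of the same list with a lower signal.

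Sequence at some of the peaks described below is given first, since these peaks lead their homeobox class, lie in front of a gene with a known early role, or were found in more than 1 library. Each line gives 151 bases around the summit, 5′ to 3′ on the strand of the ceh gene, from the RefSeq WBcel235 genome, the same assembly as ce11. The first 5 windows are centred on pooled-list summits, and the last on the replicate 4 summit of a site found in replicates 1 and 4. Capitals mark a match to 1 of 6 sequences searched on both strands, namely GAGAGA, the GATA-type TGATAA and AGATAA, the E-box CACGTG, the homeodomain core TAATTA and TTTCAAA.
ceh-37 (chrX:14208260-14208410, minus strand): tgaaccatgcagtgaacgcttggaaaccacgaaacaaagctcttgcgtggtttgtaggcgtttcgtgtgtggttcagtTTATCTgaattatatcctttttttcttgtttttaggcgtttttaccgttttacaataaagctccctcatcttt
ceh-18 (chrX:3854312-3854462, minus strand): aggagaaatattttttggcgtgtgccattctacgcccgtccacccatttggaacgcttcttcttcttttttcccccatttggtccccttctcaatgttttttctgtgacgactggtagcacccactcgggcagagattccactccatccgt
ceh-20 (chrIII:6978923-6979073, plus strand): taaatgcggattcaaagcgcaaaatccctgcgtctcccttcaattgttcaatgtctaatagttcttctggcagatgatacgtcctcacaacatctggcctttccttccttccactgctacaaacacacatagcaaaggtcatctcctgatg
ceh-31 (chrX:3071657-3071807, minus strand): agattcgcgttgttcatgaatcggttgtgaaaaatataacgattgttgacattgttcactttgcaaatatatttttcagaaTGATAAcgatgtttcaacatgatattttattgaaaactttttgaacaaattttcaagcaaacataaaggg
ceh-39 (chrX:1856189-1856339, minus strand): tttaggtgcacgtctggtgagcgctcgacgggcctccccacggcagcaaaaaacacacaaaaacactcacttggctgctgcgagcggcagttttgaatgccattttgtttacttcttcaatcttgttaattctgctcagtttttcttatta
ceh-99 (chrII:12518869-12519019, plus strand): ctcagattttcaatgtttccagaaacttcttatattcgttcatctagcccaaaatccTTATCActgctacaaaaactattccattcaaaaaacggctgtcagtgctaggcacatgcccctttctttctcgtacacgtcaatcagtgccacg
The windows at ceh-37, ceh-31 and ceh-99 each hold a GATA-type match, and those at ceh-18, ceh-20 and ceh-39 hold none of the 6 sequences. A match is a stretch of letters and was not tested as a binding site.

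None of the 61 ceh genes had a summit of the reproducible list in its region, whereas 113 protein-coding genes (0.566%) did. A count of 0 in 61 allows a share of up to 4.92% by the rule of 3 counts (exact 95% upper bound 5.87%), so at this number of genes the share cannot be told from that of all genes. The reproducible peak nearest to a ceh gene lay at chrX:3035915-3036344 with a signal of 29.6, and its summit was 27444 bp from ceh-30, nearest to M02F4.2. The next peaks by distance were 42389 bp from ceh-40 and 46798 bp from ceh-9. The other homeobox genes on a list of 40, which holds Hox, LIM, paired and Meis-type genes that do not carry a ceh name together with ceh-13 and ceh-16, had no reproducible peak either.

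In the pooled list 43 of the 61 ceh genes (70.5%, 95% exact interval 57.4 to 81.5%) had at least 1 summit, beside 77.3% of all protein-coding genes. In replicate 1 the ceh genes with a summit were 20 (32.8%, interval 21.3 to 46%), beside 39.9% of all genes. In replicate 2 they were 25 (41%, interval 28.6 to 54.3%), beside 49.9% of all genes. In replicate 4 they were 15 (24.6%, interval 14.5 to 37.3%), beside 28.7% of all genes. Each share was below that of all genes and each interval took in the value of all genes, so none of these single shares stood apart beyond counting error. With a window of 5000 bp the pooled share turned round, to 95.1% of ceh genes beside 94% of all genes, and with each summit given to the nearest start alone both were 62.3%. The ratio of the ceh share to the share of all genes was 0.821 in replicate 1, 0.821 in replicate 2 and 0.856 in replicate 4, a mean of 0.833 ± 0.02 (SD, n = 3 libraries). The libraries were scored on the same 61 genes, so this SD is the spread between libraries and not between genes. In the list of 40 other homeobox genes, 36 (90%, interval 76.3 to 97.2%) had a pooled summit. A library summit was found at 21 (52.5%) in replicate 1, 22 (55%) in replicate 2 and 14 (35%) in replicate 4. The merged regions of these 40 genes span 323 kb, beside 348 kb for the 61 ceh genes, so they are longer per gene. Over all genes, 92.5% of those with a region above 6000 bp had a pooled summit, and the part of length was not tested.

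**Figure D1:**
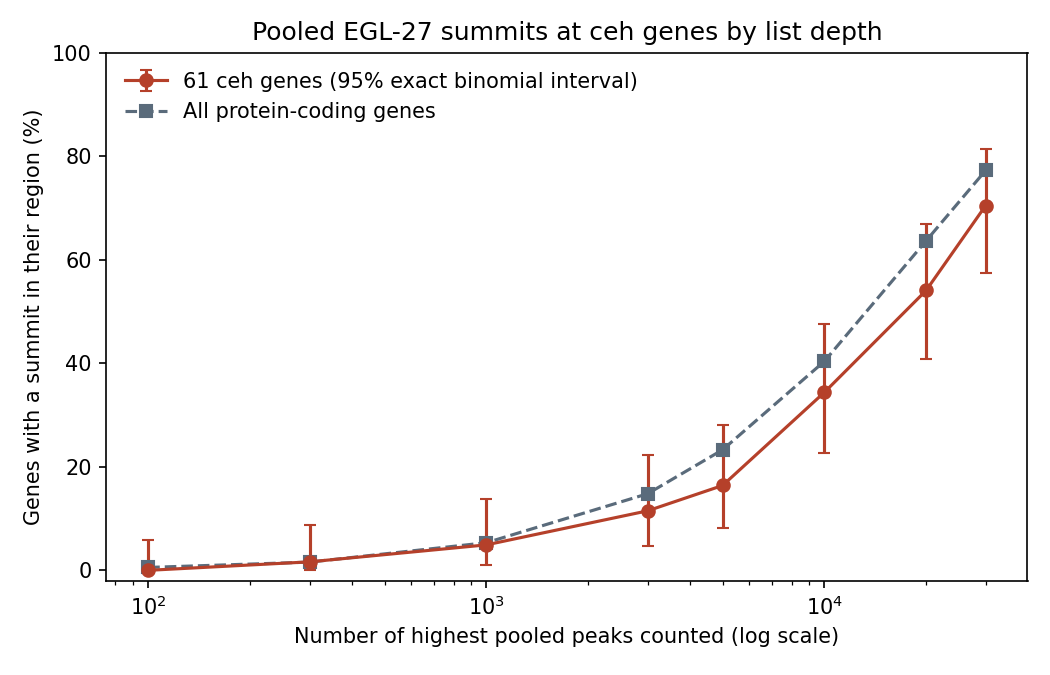
Percentage of the 61 ceh genes and of all 19973 protein-coding genes with a pooled-list summit in the gene region (vertical axis), for the highest-signal part of the list from 100 to 30000 peaks (horizontal axis, log scale), with 95% exact intervals on the ceh genes. The ceh genes reach 70.5% at 30000 peaks and all genes 77.3%, and the interval takes in the all-gene value at that depth.

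The share was also followed from the highest pooled signals downward. Among the 300 highest peaks 1 ceh gene had a summit (1.64%, beside 1.59% of all genes). Among the 1000 highest there were 3 ceh genes (4.92%, beside 5.34%), and among the 5000 highest there were 10 (16.4%, beside 23.3%). At 10000 peaks 21 ceh genes had a summit (34.4%, beside 40.4%), and at 20000 peaks 33 did (54.1%, beside 63.7%). By value the ceh genes were close to all genes among the highest peaks and below them in the longer lists.

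Regions of ceh genes were longer than usual, with a median of 4875 bp beside 4182 bp for all genes, so summits were also counted per Mb of region. The ceh regions held 75 pooled summits, or 216 per Mb (95% exact Poisson interval 170 to 271), beside 306 per Mb in the regions of all protein-coding genes. In replicate 1 there were 28 summits, or 80.6 per Mb (53.5 to 116), beside 99 per Mb. In replicate 2 there were 33 summits, or 95 per Mb (65.4 to 133), beside 139 per Mb. In replicate 4 there were 17 summits, or 48.9 per Mb (28.5 to 78.3), beside 67 per Mb. The value of all genes lay above the interval in the pooled list and in replicate 2, and inside it in replicates 1 and 4. The ratio of ceh density to the density of all genes averaged 0.743 ± 0.0655 over the 3 libraries (SD), and was 0.705 in the pooled list, which is made from the same libraries. The mean over libraries was a planned result, and the pooled ratio was not. These intervals and those on shares cover counting error only and treat summits as independent, which neighbouring summits in 1 region need not be. In the other homeobox genes the ratio was 0.93 in the pooled list, 1.16 in replicate 1, 0.893 in replicate 2 and 0.738 in replicate 4.

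**Figure D2:**
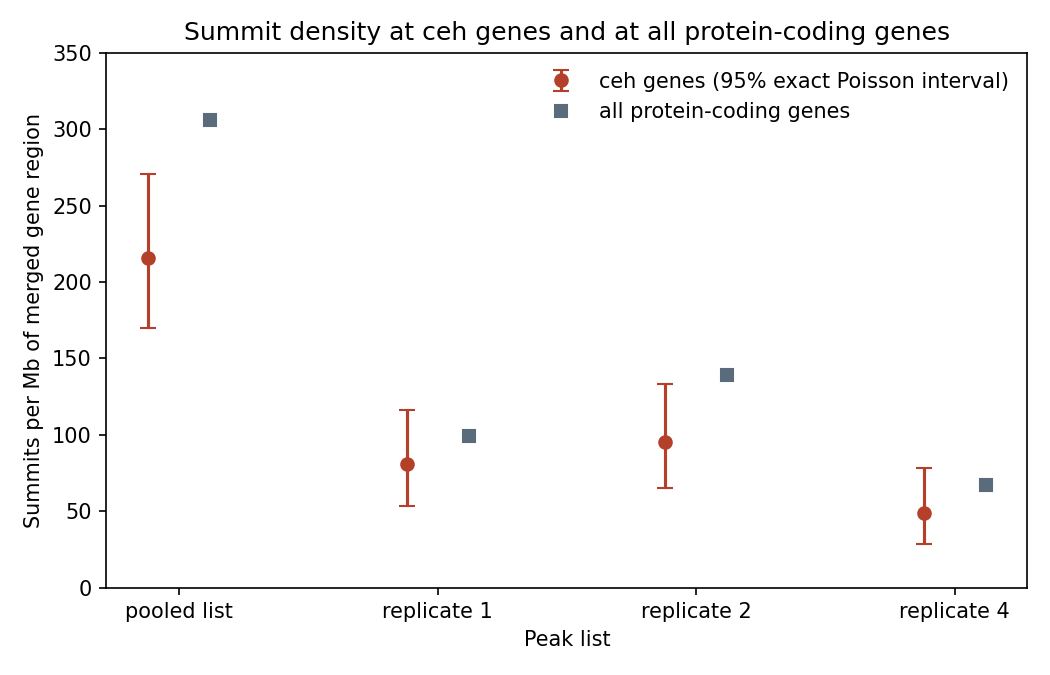
Summits per Mb of gene region (vertical axis) in the pooled list and in the 3 single-library lists (horizontal axis) for the 61 ceh genes, with 95% exact Poisson intervals, and for all protein-coding genes. The ceh genes lie at 216 per Mb in the pooled list, where all genes lie at 306 per Mb.

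Densities of the gene body and of the start window were also taken apart. Within ceh gene bodies the pooled list had 39 summits, or 183 per Mb (interval 130 to 250), beside 297 per Mb in the bodies of all genes, a ratio of 0.615. Within 2000 bp of a ceh transcript start it had 60 summits, or 224 per Mb (interval 171 to 289), beside 313 per Mb, a ratio of 0.716. The mean ratio over the 3 libraries was 0.64 ± 0.092 for bodies and 0.779 ± 0.148 for start windows (SD). Within replicate 1 the ratio was 0.688 for bodies and 0.95 for start windows. Replicate 2 had 0.534 and 0.704, and replicate 4 had 0.698 and 0.685. The start window was thus higher in replicates 1 and 2 and not in replicate 4. Bodies and start windows share part of their bases and summits, and the difference was not tested. By length of the region, a pooled summit was found in 12 of 21 ceh genes with the shortest region of 4001 bp (57.1%, beside 68.7% of all genes of that length). It was found in 19 of 24 with up to 6000 bp (79.2%, beside 78%) and in 12 of 16 with longer regions (75%, beside 92.5%).

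On chromosome X, which holds dosage-compensated genes in hermaphrodites, the pooled list had 30 summits in ceh regions, or 275 per Mb (interval 185 to 392), beside 324 per Mb in X regions of all genes. On the autosomes it had 45, or 189 per Mb (interval 138 to 253), beside 302 per Mb. The ratio of ceh to all genes on X was 0.524 in replicate 1, 0.772 in replicate 2 and 0.941 in replicate 4. On the autosomes it was 0.944 in replicate 1, 0.639 in replicate 2 and 0.582 in replicate 4. The libraries put the lower ratio on different chromosomes, so no difference between X and the autosomes held across them. A pooled summit lay at 33.3% of the 12 ceh genes on V (beside 72.8% of all genes there) and 62.5% on I (beside 80.7%). The share was 84.6% on II (beside 75.2%), 83.3% on III (beside 83.3%), 100% on IV (beside 76.2%) and 77.8% on X (beside 80.6%). For library summits on V, replicate 1 had 41.7% (beside 35.7%), replicate 2 had 16.7% (beside 44.1%) and replicate 4 had 0% (beside 22.3%). Chromosome V was singled out after its values were seen, with no test.

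The signals of the 75 ceh summits were spread through the pooled list, from 3.75 to 14.8 with a median of 5.36, beside a median of 5.25 in the list as a whole. Their median percentile was 52.7, with quartiles of 19.2 and 71.1, and 7 of the 75 (9.33%) were above percentile 90 of the list, beside 9.92% of the summits of all genes. The median percentile of ceh summits was 49.5 in replicate 1 (beside 49.8 for the summits of all genes), 42 in replicate 2 (beside 49.8) and 49.2 in replicate 4 (beside 49.6). By value, ceh peaks were thus fewer per Mb in the pooled list and in each library, within counting error in replicates 1 and 4. Where present they were about as high as the other peaks of their list, and lower by median in replicate 2. Yet 5 of the 33 ceh summits of replicate 2 (15.2%) were at percentile 90 or higher, beside 9.74% of the summits of all genes. That share was 10.7% in replicate 1 (beside 10%) and 5.88% in replicate 4 (beside 9.58%).

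Few pooled peaks of the ceh genes had a counterpart in more than 1 library. Of the 75 pooled peaks with a summit in a ceh region, 27 (36%, beside 35.6% of such peaks over all genes) overlapped no single-library peak, and 45 (60%, interval 48 to 71.1%, beside 49.8%) overlapped a peak of 1 library. Peaks of 2 or more libraries were overlapped by 3 of the 75 (4%, 95% exact interval 0.833 to 11.2%), beside 14.6% of the 25632 pooled peaks of all protein-coding genes, a value above the interval. This share was not a planned result and was added after the data were seen. Between the 2 libraries left without replicate 1 the share was 1.33% (beside 6.2%), without replicate 2 it was 1.33% (beside 4.39%) and without replicate 4 it was 4% (beside 8.05%). By library, 14 of the 75 (18.7%, beside 24%) overlapped a peak of replicate 1, 31 (41.3%, beside 40.4%) one of replicate 2 and 7 (9.33%, beside 16.6%) one of replicate 4. For replicate 2, the longest list, the share was close to that of all genes, and for replicates 1 and 4 it was lower by value, with no test of the single libraries.

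**Figure D3:**
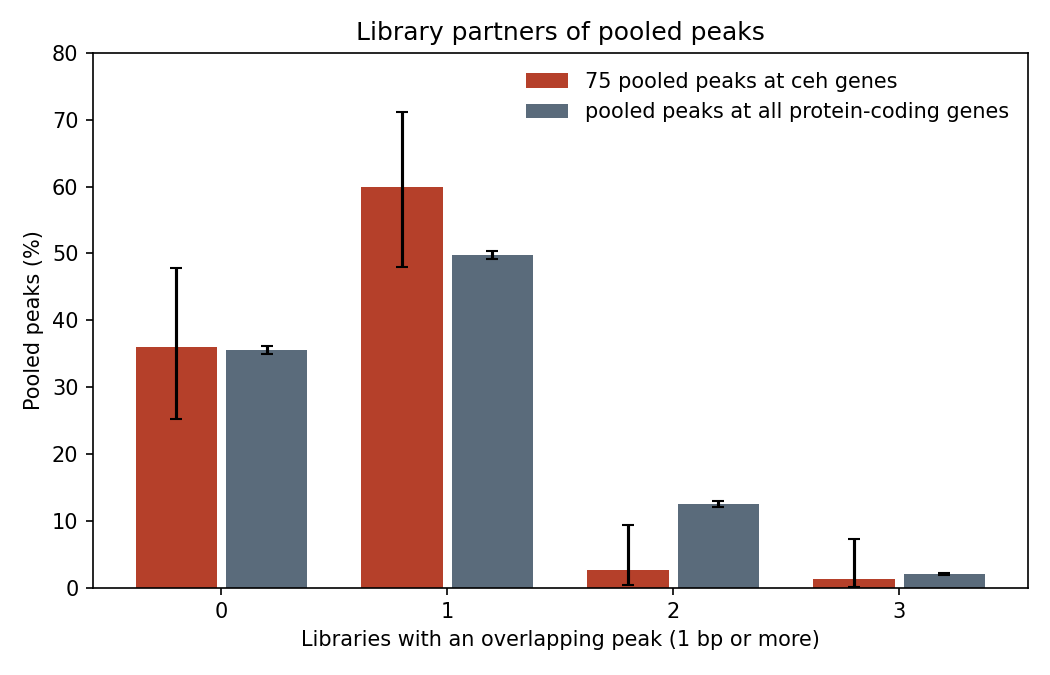
Percentage of pooled peaks (vertical axis) by the number of single-library lists with an overlapping peak (horizontal axis), for the 75 pooled peaks of the ceh genes and for the 25632 pooled peaks of all protein-coding genes, with 95% exact intervals. Peaks with 2 or more libraries make up 4% of the ceh peaks and 14.6% of those of all genes.

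The same was counted on the library lists alone. Library peaks that overlapped a shared best-placed peak by at least 1 bp were joined into a site. A site of at least 1 library was present at 42 ceh genes (68.9%, beside 71.9% of all genes), of at least 2 libraries at 5 (8.2%, interval 2.72 to 18.1%, beside 17.8%), and of all 3 libraries at 1 (1.64%, interval 0.0415 to 8.8%, beside 2.55%). Regardless of place within the region, all 3 libraries had a summit at 1 ceh gene (1.64%, beside 10.8% of all genes), 2 libraries at 16 (26.2%, beside 24.9%), 1 library at 25 (41%, beside 36.2%) and no library at 19 (31.1%, beside 28%). Without replicate 1 the count of genes with a site of at least 2 libraries was 1 (beside 7.78% of all genes), without replicate 2 it was 2 (beside 6.17%) and without replicate 4 it was 4 (beside 10.5%). The single gene with a site of all 3 libraries is 1.64% of the ceh genes, which was above the share of all genes when summits had to lie within 100 bp (0.711%) and in the highest 5000 peaks (1.15%). The 5 genes with a site of at least 2 of the 3 libraries were ceh-5, ceh-12, ceh-17, ceh-31 and ceh-99, and only ceh-5 had a site of all 3.

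**Figure D4:**
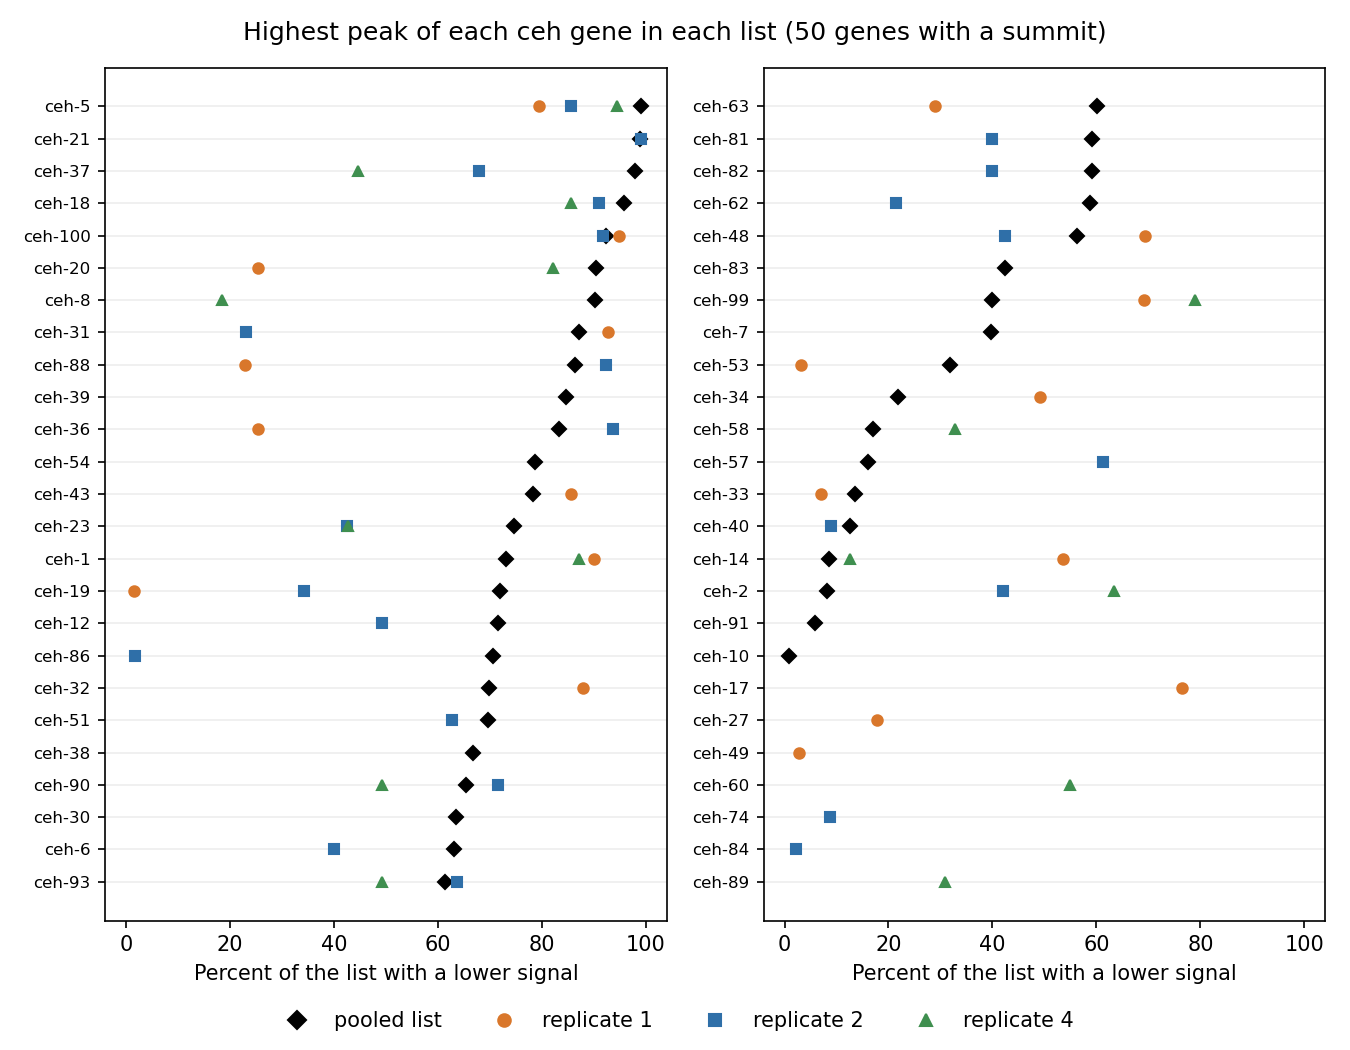
Highest percentile of signal of a summit in each ceh gene's region, in the pooled list and in each of the 3 libraries, for the 50 ceh genes with a summit in any list, ordered by the pooled value (horizontal axis, percent of the list with a lower signal; 1 row per gene). The other 11 ceh genes have none, and ceh-5 has a value in the pooled list and in all 3 libraries.

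The classes are taken first by the Antennapedia-like genes, the class of the Hox genes and their relatives. All 9 of the genes in this class outside the NK group had a pooled summit, 4 had one in replicate 1, 7 in replicate 2 and 3 in replicate 4. The shares of all protein-coding genes belong beside these and the class counts below. They were 77.3% in the pooled list, 39.9% in replicate 1, 49.9% in replicate 2 and 28.7% in replicate 4. Each class holds few genes, and no class was tested against all genes. The gene ceh-5 (chrI:9727169-9728034, plus strand) was the only ceh gene with a site of all 3 libraries. The overlapping peaks there had a signal of 3.62 in replicate 1 (percentile 79.5), 5.81 in replicate 2 (percentile 85.5) and 5.13 in replicate 4 (percentile 94.5). The 3 summits lay 1640, 1696 and 1620 bp before the ceh-5 start in replicates 1, 2 and 4, a spread of 76 bp. In the pooled list the peak at chrI:9725298-9725727 had a signal of 14.8, rank 260 of 30000 and the highest of any ceh gene, with its summit 1656 bp before the start. The nearest start is that of ceh-5, yet the summit lies in an untranslated exon within the genes eat-16 and ocrl-1, so the peak cannot be given to ceh-5 alone. A weaker site of replicates 1 and 4, with signals of 2.29 (percentile 19) and 2.61 (percentile 42.2), overlapped the same pooled peak. Its summits lay beyond the end of that peak.

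Of the other Antennapedia-like genes, ceh-31, a BarH-type gene next to ceh-30, had a site 1168 bp before its start in replicate 1 with a signal of 2.78 (percentile 49.8) and 1382 bp before it in replicate 2 with 3.52 (percentile 23), and replicate 4 had no peak there. The pooled peak over it had a signal of 7.97 (percentile 87.2), so its place in the pooled list was higher than in either library. Another replicate 1 peak, with a signal of 4.62 (percentile 92.7), lay in an intron of the gene. The gene ceh-30, which protects male-specific CEM sensory neurons from programmed cell death, had a pooled summit of signal 5.91 in a coding exon and no library peak over it. The gene ceh-12, the relative of vertebrate HB9 that acts in ventral cord motor neurons, had a site with a signal of 4.09 in replicate 2, 1859 bp before its start, and 2.38 in replicate 1, whose summit at 2037 bp is just outside the window. The replicate 2 summit is 212 bp from the start of F33D11.16. The gene ceh-43, a Distal-less relative used in dopaminergic neurons and the anterior epidermis, had 3 pooled summits of signal 6.93, 3.79 and 4.01 within 500 bp of its start, and library peaks in replicate 1 only. The pooled peaks of 6.93 and 3.79 overlapped each other and the same replicate 1 peak, of signal 2.29 (percentile 19.1). The windows at the summits of 3.79 and 4.01 share a stretch of identical bases. Only protein-coding genes were looked up as neighbours, so these peaks cannot be given to ceh-43 alone. The gene ceh-23 had a pooled summit of signal 6.62 at 1955 bp, close to the edge of the window.

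The paired-like class holds genes for sensory and interneuron identity, and 6 of its 8 genes had a pooled summit, 3 a replicate 1 summit, 2 a replicate 2 summit and 2 a replicate 4 summit. The Otx-type gene ceh-37 (chrX:14197372-14208000, minus strand), needed for AWB olfactory neurons, had 5 pooled summits. The highest, at chrX:14208120-14208549, had a signal of 12.1 (rank 616) and lay 335 bp before the start, and its sequence is given above. At the same base replicate 2 had a summit with a signal of 4.73 (percentile 67.9), and replicates 1 and 4 had no peak there. Its neighbour ceh-36, the Otx-type gene of the ASE and AWC sensory neurons, had a pooled peak with a signal of 7.45, 808 bp before the start, with a replicate 2 peak of 6.99 (percentile 93.7) and no peak of replicates 1 and 4. Both of these Otx-type genes thus had their highest pooled peak in front of the start, overlapped by a replicate 2 peak only. Replicate 2 is the longest library list, and its peaks overlapped 40.4% of the pooled peaks of all genes. The gene ceh-8, a relative of the vertebrate retinal homeobox genes, had a pooled peak of 8.56 with a replicate 4 peak of 2.22 (percentile 18.5), but that summit lies beyond the gene and 468 bp from the start of the collagen gene col-63. The gene ceh-17, a Phox2 relative of the ALA and SIA neurons, had a site with signals of 3.45 in replicate 1 and 3.4 in replicate 2, beyond its end. The replicate 1 summit is 339 bp from the start of idpp-10, and the replicate 2 summit, at 2073 bp from the ceh-17 start, is outside the window. The lowest pooled peak of any ceh gene was that of ceh-10, the AIY interneuron gene, with a signal of 3.75. No list had a summit at ceh-45, the goosecoid relative.

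Among the ONECUT genes, which combine a cut domain with a homeodomain, 4 of 6 had a pooled summit, 2 a replicate 1 summit, 2 a replicate 2 summit and none a replicate 4 summit. The gene ceh-21 (chrX:1848779-1852736, minus strand) had the second highest pooled signal of the ceh genes, 13.8 (rank 356), at chrX:1853599-1854028. Replicate 2 had a peak there with a signal of 10.9 (rank 125, percentile 99.1), and replicates 1 and 4 had none, so the pooled rank went with a single library. The summit was 1078 bp before the ceh-21 start and 35 bp from the start of T26C11.9. The gene ceh-39, an X-linked signal that represses the sex-determination switch xol-1 in embryos, lies beside ceh-21 and ceh-41. It had a pooled peak of 7.6 at chrX:1856049-1856478, 92 bp before its start, and no library peak overlapped it. The gene ceh-41 had no summit in any list.

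Both POU genes had a pooled summit and a replicate 2 summit. The gene ceh-18 (chrX:3843367-3857797, minus strand), which acts in gonadal sheath cells and restrains oocyte maturation, had a pooled peak of 10.3 (rank 1291) in an intron at chrX:3854172-3854601, 1685 bp from the nearest annotated start. Replicate 2 had a peak over it with a signal of 6.4 (percentile 90.9), and replicates 1 and 4 had none over it. The 3 genes of the sine oculis class, used in head and pharynx, had a summit in the pooled list and in replicate 1, and none in replicates 2 and 4. The gene ceh-32, the relative of vertebrate SIX3 that shapes the head, had a pooled summit of 6.3 only 4 bp from its start, with replicate 1 peaks of 3.76 and 4.12 (percentiles 81.3 and 87.8) at 6 and 210 bp. The LIM gene ceh-14, a regulator of thermosensory neurons, had a pooled summit of 3.89 (percentile 8.6) at 17 bp from its start, a replicate 1 peak of 2.8 and a replicate 4 peak of 2.17 elsewhere in the gene.

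Of the PBC genes, whose products bind DNA with Hox proteins, 2 of 3 had a pooled summit. The gene ceh-20 (chrIII:6979884-6981785, plus strand), the Extradenticle and Pbx relative that serves as a Hox cofactor, had a pooled peak of 8.58 (rank 2900) at chrIII:6978783-6979212, 886 bp before its start. Replicate 4 had a peak of 3.82 (percentile 82.2) there, replicate 1 had a summit of 2.4 in a coding exon, and replicate 2 had no summit in the region. The gene ceh-60, a PBC gene that acts in intestinal vitellogenesis, had a summit of 2.78 in replicate 4 and none in the pooled list.

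The NK class had the lowest share of genes with a pooled summit, 2 of 7 genes (28.6%, beside 77.3% of all protein-coding genes) and 4 genes with no summit in any list. Those 4 include ceh-22, the tinman and Nkx2-5 relative that drives pharyngeal muscle genes, ceh-24, used in vulval and pharyngeal muscle and head neurons, and ceh-28, used in the M4 pharyngeal motor neuron. The highest NK peak was at ceh-1, with a pooled signal of 6.49 (percentile 73) beyond the gene, a replicate 4 peak of 4.18 (percentile 87.2) over it, and a separate replicate 1 peak of 4.32 (percentile 90) 483 bp before the start. The class was singled out after its values were seen, and 7 genes are too few to set it apart from the other classes.

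The 22 ceh genes not placed in a class had a pooled summit in 14 (63.6%), beside 29 of the 39 classed genes (74.4%). For all protein-coding genes the share was 77.3%. The gene ceh-100 had the longest region of all ceh genes, 23503 bp, and 5 pooled summits, the highest with a signal of 9.06 in a coding exon at chrII:12584315-12584744. A replicate 1 peak of 4.7 (percentile 93.2) lay there, replicate 2 had a peak of 6.55 (percentile 91.7) in an intron near another pooled summit of signal 7.01, and replicate 4 had no summit in the region. The gene ceh-93 had 4 pooled summits with signals of 4.65 to 5.8. The gene ceh-88 had a pooled peak of 7.9 at chrIV:17331021-17331450 with a replicate 2 peak of 5.82, and the start of C49C3.6 is 291 bp away. At ceh-99, whose sequence is given above, a site had a signal of 3.26 in replicate 1 (percentile 69.2) and 3.61 in replicate 4 (percentile 78.9), 1265 and 1037 bp before the start. The summits were 143 and 85 bp from the start of srh-70, replicate 2 had no peak there, and no pooled peak overlapped the replicate 4 peak.

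No list had a summit in the regions of 11 ceh genes (18%, beside 15.6% of all protein-coding genes). The 5 with the longest regions were ceh-92, ceh-22, ceh-45, ceh-79 and ceh-24, and the others were ceh-9, ceh-28, ceh-41, ceh-75, ceh-76 and ceh-87. A further 8 genes had a summit in the pooled list alone and 7 in a library alone. These counts were not taken over all protein-coding genes, so whether they are usual cannot be told.

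Some ceh genes lie side by side, and pooled summits were counted over such clusters. Bodies within 20000 bp of each other formed 7 clusters of 16 genes. The pair ceh-36 and ceh-37 held 7 pooled summits, the pair ceh-30 and ceh-31 held 3, the trio ceh-81, ceh-82 and ceh-83 held 3, and the trio ceh-41, ceh-21 and ceh-39 held 2. Of the 75 pooled summits, 1 lay in the regions of 2 ceh genes, ceh-81 and ceh-82. Another protein-coding gene's region also covered 27 of the 75 (36%), and the ceh start was the nearest start for 56 (74.7%).

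**Figure D5:**
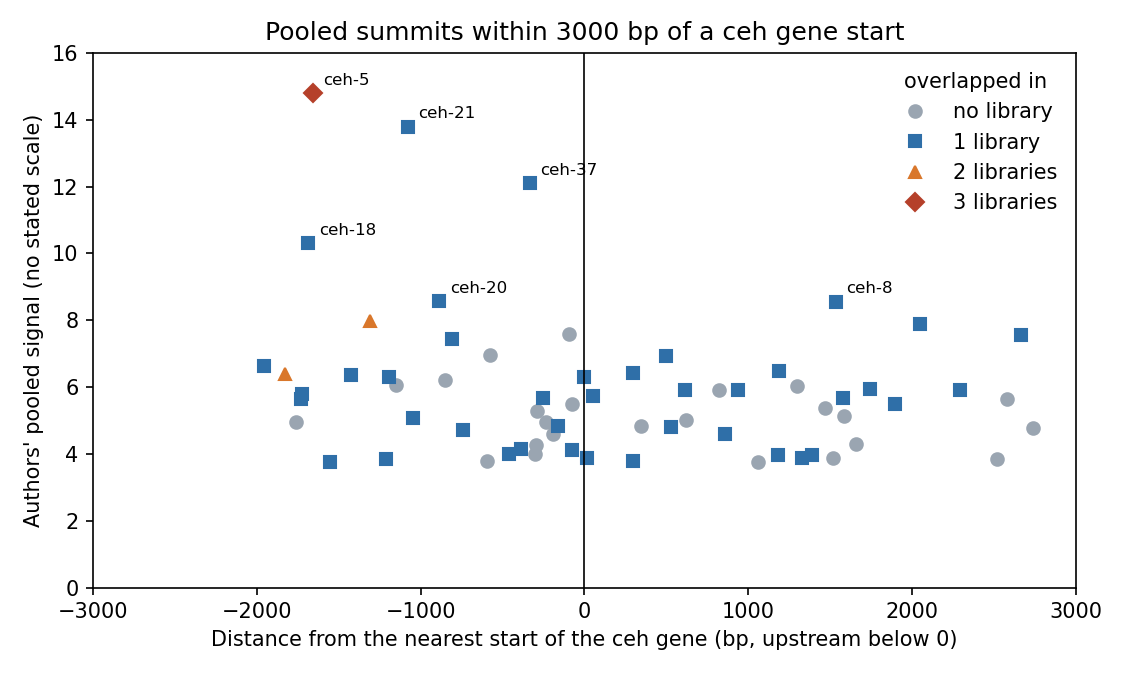
Signed distance in bp from the nearest transcript start of the ceh gene to each pooled summit in its region (horizontal axis, negative values upstream) against the pooled signal (vertical axis), drawn for 3000 bp to each side. The summit of ceh-5 at 14.8 and that of ceh-21 at 13.8 lie more than 1000 bp upstream, and ceh-37 at 12.1 lies 335 bp upstream.

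By position, 28 of the 75 pooled summits (37.3%, beside 32.8% of those of all genes) were at most 500 bp from the start of a protein-coding gene, 24 (32%, beside 28.5%) in introns and 13 (17.3%, beside 15.3%) between genes. Coding exons held 7 (9.33%, interval 3.84 to 18.3%), beside 19.4% of the summits of all genes, a value above the interval. Coding sequence made up 22.5% of the ceh regions and 29.5% of the regions of all genes, and its part in this difference was not tested. At the summits, the GATA-type TGATAA was found within 100 bp in 17 of 75 windows (22.7%, beside 18.8% of all 30000 pooled windows) and AGATAA in 10 (13.3%, beside 11.5%). GAGAGA was found in 7 (9.33%, interval 3.84 to 18.3%, beside 14.2%), TAATTA in 6 (8%, beside 8.94%), TTTCAAA in 22 (29.3%, beside 26.2%) and CACGTG in none (beside 3.9%). All the searched sequences were thus near their share in the pooled list, within the counting error of 75 windows.

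Extra copies of transgene sequence can add reads at the places in the genome it was taken from. The ceh gene nearest to egl-27 (chrII:6835008-6847908) is ceh-38, 103618 bp away, and the one nearest to unc-119 is ceh-92, 672665 bp away.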

How the data were processed

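Peaks of tagged EGL-27 were used as the authors deposited them, on build ce11: 1 list for each of 3 libraries, a pooled list and a reproducible list drawn from them by the irreproducible discovery rate procedure, per the deposited README texts. The deposited signal of each peak is on a scale that was not stated, and the deposited q column was read as a score, because 29113 of the pooled peaks are below 0, and served only in an alternative ranking. No source used here gives the aligner, the peak caller or the rate threshold. Lists on ce10 and the possible control experiment named in the labels were not analysed here. The pooled list was made from the 3 libraries together and does not hold every library peak. Read numbers were not used, so depth is unknown.

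Genes came from Ensembl release 115. Summits were assigned to every gene whose region held them. A site is the set of peaks of different libraries that overlap, by 1 bp or more, the peak with the highest percentile, and it belongs to the gene holding that peak's summit. Libraries shared between 2 and 11 identical summits, so each counted as 1 sample. Labels call them biological replicates without naming separate cultures, so an SD measures the spread between these libraries. Homeobox classes matched 39 of 40 listed symbols and the other homeobox list 40 of 40. No test across genes was made, since the data form 1 group; intervals are exact at 95%. Scripts ran in Python 3.11.15 with numpy 2.4.6, scipy 1.17.1 and matplotlib 3.10.9, and were tested on simulated data.

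The ceh genes, the classes and the lists were chosen with earlier results of these data known. The rule for named genes took genes with a site in all 3 libraries, the 10 highest pooled signals, the 3 genes with most pooled summits, the highest of each class and the 5 longest regions with no summit. Further ceh genes were named with their values in view. Alternatives changed the window, the overlap, the depth of the list, the rule of assignment and the ranking column, or left out each replicate in turn.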

Additional observations from a re-analysis of the deposited data

How the results depend on the processing

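Of 68 alternative values, 32 stayed within the limit set for their kind, 33 moved, and 3 put the ceh genes above all genes instead of below. Those 3 were the pooled count at 5000 bp, 58 genes (95.1%, beside 94% of all genes), and the single gene with a site in all 3 libraries, whose 1.64% stood beside 1.15% in the highest 5000 peaks and 0.711% with summits within 100 bp. With the nearest start alone the pooled share was 62.3% for both. Mean ratios over the libraries and the pooled density ratio were below 1 at each setting run. The count of ceh genes with a site in 2 or more libraries, 5 at the settings used (beside 17.8% of all genes), was 12 with a window of 5000 bp (beside 30.9%) and 17 when any summit in each library sufficed (beside 35.8%). It was 2 by nearest start (beside 12.5%), 2 in the highest 5000 peaks (beside 7.68%), and 1 with summits within 100 bp (beside 8.58%). It was 0 at 500 bp (beside 11.5%), for the body alone (beside 8.17%), in the highest 1000 peaks (beside 1.36%) and in the highest 1000 by q (beside 1.39%). It ranged from 1 to 4 when a replicate was left out: 1 without replicate 1, 2 without replicate 2 and 4 without replicate 4. The count for all 3 libraries, 1 at the settings used (beside 2.55%), was 0 at 500 bp (beside 1.53%), for the body alone (beside 0.936%) and in the highest 1000 (beside 0.265%). Ceh genes with a pooled summit numbered 27 for the body alone (beside 48.8%), 10 in the highest 5000 (beside 23.3%) and 3 in the highest 1000 (beside 5.34%). The mean share ratio was 0.807 at 500 bp, 0.948 at 5000 bp, 0.857 for the body alone, 0.909 with any overlap of 1 bp, 0.909 by nearest start, 0.776 in the highest 5000, 0.803 in the highest 1000, 0.902 by q and 0.821 to 0.839 without a replicate. The mean density ratio was 0.647 at 500 bp, 0.809 at 5000 bp, 0.64 for the body alone, 0.861 in the highest 1000 and 0.708 to 0.772 without a replicate. The pooled density ratio, which was not a planned result, ranged from 0.615 to 0.814. The share of pooled ceh peaks overlapped in 2 or more libraries was also not planned and was added after seeing the data. It was 1.33% in the highest 5000 (beside 6.04%), 1.33% with summits within 100 bp (beside 5.26%) and 1.33 to 4% without a replicate. Shorter windows and lists hold fewer peaks by construction; other causes were not tested. Counts of 5 or fewer genes and unknown depth limit what the site counts can show. No paired analysis between conditions was possible because the data form 1 group of libraries.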
